A study of Mus musculus with 6 samples.

Results

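The genes of the mitochondrial respiratory chain and of ATP synthase were examined in the RNA of sorted HSCs, the hematopoietic stem cells from which every blood lineage of the bone marrow is renewed. Members were the protein-coding genes whose symbol begins with mt-Nd, mt-Co, mt-Cytb, mt-Atp, Nduf, Uqcr, Cox4 to Cox8 or Atp5, together with Sdha, Sdhb, Sdhc and Sdhd, which gave 107 of the 27198 genes in the deposited table. Of these, 13 are encoded by mitochondrial DNA (mtDNA) and 94 by the nucleus. HSCs came from wild-type male C57BL/6 mice 8 to 10 weeks old. The l-FA mice received ferulic acid (FA), a plant phenolic acid, by daily intraperitoneal injection of 50 mg/kg over 30 days, and the Ctrl mice received vehicle. Cells were sorted as lineage-negative, Sca-1+, c-Kit+, Flk2- and CD34-, and 3 Ctrl and 3 l-FA libraries were sequenced. The sources used here do not state how many mice went into a library, so n counts libraries, and p-values measure the spread between these libraries, which may be technical.

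Respiratory chain complexes I to IV pass electrons from NADH and succinate to oxygen and, except for complex II, pump protons out of the mitochondrial matrix, and ATP synthase, complex V, makes ATP as protons flow back. Complex II is wholly nuclear-encoded, whereas the other complexes combine subunits made from both genomes. HSCs are known for keeping respiration low while at rest and for raising it as they differentiate.

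Each library held between 19287735 and 20380610 counts. Pairs of libraries from the same group differed by more than counting error, with a median chi-square per gene of 0.888 to 1.07, where counting error alone gives 0.455, and pairs from different groups gave 8.19 to 8.83. Markers of other cells moved with the groups. The summed level of 12 granulocyte-monocyte precursor genes was 25277 to 25928 CPM (counts scaled to library size after TMM normalization) in Ctrl and 6778 to 7449 CPM in l-FA, and 10 of the 12 were lower in l-FA, Mpo and Elane among them. None of the 12 was at 0. The 10 HSC marker genes summed to 746 to 789 CPM in Ctrl and 853 to 877 CPM in l-FA, with 5 higher and 1 lower. Erythroid marker genes summed to 863 to 929 CPM in Ctrl and 1250 to 1336 CPM in l-FA, with 3 of 9 higher and 1 lower. The rise of this sum was not general, as the median log2 fold change of the 9 was 0.03, with 5 above 0 and 4 below. Megakaryocyte marker genes summed to 207 to 217 CPM and 295 to 301 CPM, with 3 of 5 higher. Lymphoid marker genes summed to 550 to 574 CPM and 311 to 322 CPM, nearly all of it Nkg7, the 1 of 4 tested that was lower, while Ms4a1 was at 0 in all l-FA libraries. RNA of Cd34 and Flt3, the genes of the surface proteins that the sort gated against, was present at 1325 to 1361 CPM and 756 to 763 CPM in Ctrl, and the 4 sort markers Kit, Ly6a, Cd34 and Flt3 were all higher in l-FA. By the test given below, 50.5% of all genes tested were called, 25.0% lower and 25.5% higher. The share called was 91.7% for granulocyte-monocyte markers, 60% for HSC markers and 60% for megakaryocyte markers. For erythroid and lymphoid markers it was 44.4% and 25%, not above that of all genes. The part of the marker shifts in the results that follow was not tested, and in bulk RNA fewer cells of a type and less RNA per cell cannot be told apart.

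Of the 107 genes, 104 passed the filter on low counts, and Cox7a1, Cox8b and Ndufa4l2 did not. By edgeR's quasi-likelihood test with Benjamini-Hochberg adjustment over all 16520 genes tested, 45 of the 104 were lower in l-FA than in Ctrl, 3 were higher and 56 did not pass an adjusted p of 0.05. Over all genes tested the same rule called 25.0% lower and 25.5% higher, or 50.5% in either direction, against 43.3% lower and 2.88% higher among the respiratory genes. The respiratory genes were therefore called about as often as other genes, and the balance of directions differed from that of the whole table. Their median log2 fold change was -0.19, where that of all genes tested was 0.00. The changes were small. An absolute log2 fold change under 0.5 was found for 97 of the 104, compared with 70.0% of all genes tested. Past 2-fold there was 1 called member, Cox4i2, where 11.8% of all genes passed that rule, 5.10% lower and 6.68% higher. Every l-FA library lay below every Ctrl library for 55 members and above for 5, compared with 29.9% and 30.4% of all genes, or 60.3% on either side. The plot of members by complex shows this shift as a band just below 0 in each complex.

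**Figure D1:**
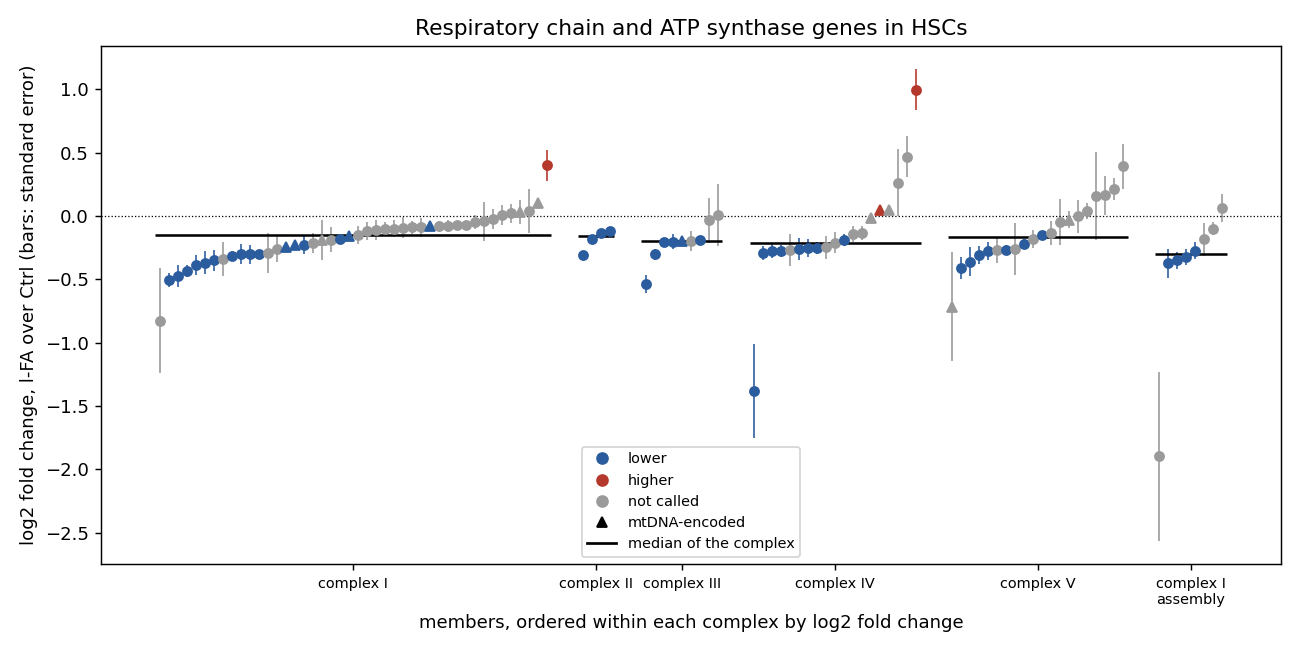
Log2 fold change (l-FA over Ctrl) of the 104 members tested, ordered within each complex, with standard errors as bars and the median of each complex as a line. Blue points are lower and red points higher at an adjusted p under 0.05 (edgeR), triangles are mtDNA-encoded, and most points lie between -0.5 and 0, with medians from -0.30 to -0.15.

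All complexes had a median below 0. Complex I had 16 members lower and 1 higher of 44 (median -0.15), complex II 4 lower of 4 (-0.16), complex III 6 lower of 9 (-0.20), complex IV 8 lower and 2 higher of 19 tested (-0.21), and complex V 7 lower of 20 (-0.17). Among the 8 complex I assembly factors of the Nduf family, which help build the complex and are not part of it, 4 were lower (median -0.30). The share called in either direction was 38.6%, 100%, 66.7%, 52.6% and 35% for complexes I to V, against 50.5% of all genes tested. Summed over members, the level of complex II went from 1360 to 1374 CPM in Ctrl to 1190 to 1204 CPM in l-FA, and that of complex III from 2861 to 2931 CPM to 2431 to 2500 CPM, without overlap between the groups. The sum of complex IV overlapped between the groups. It was 4188 to 4397 CPM in Ctrl and 4165 to 4302 CPM in l-FA, of which its 3 mtDNA genes held 3086 to 3199 CPM and 3234 to 3253 CPM. By encoding, 40 of the 91 nuclear genes tested were lower and 2 higher (median -0.19), and 5 of the 13 mtDNA genes were lower and 1 higher (median -0.08). The nuclear genes summed to 11350 to 11535 CPM in Ctrl and 9888 to 10014 CPM in l-FA.

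**Figure D2:**
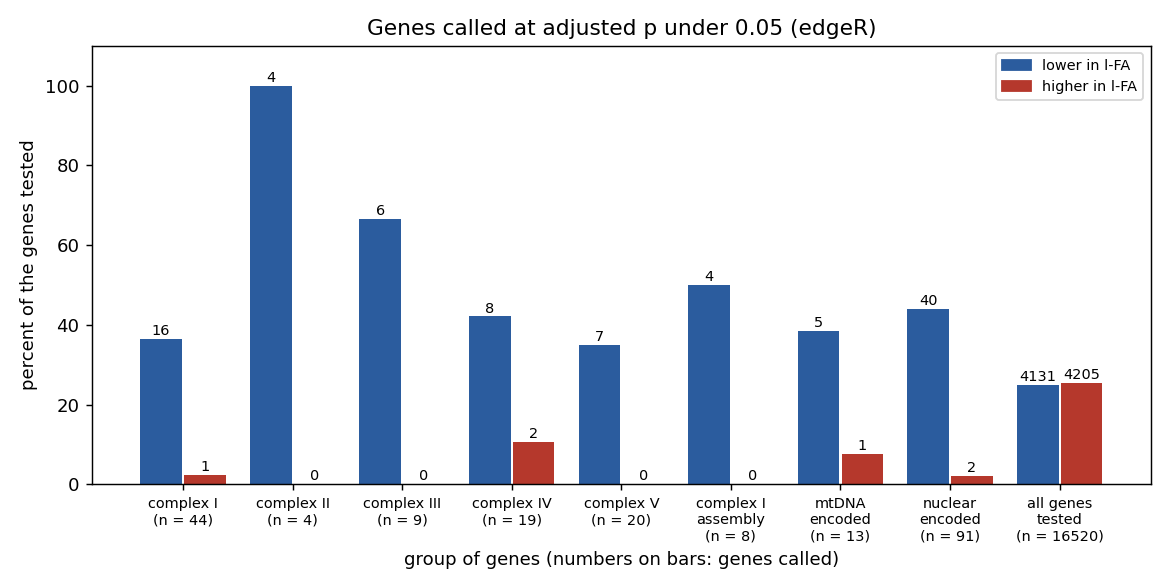
Percent of the genes tested in each complex, in each genome and in the whole table that were lower (blue) or higher (red) in l-FA at an adjusted p under 0.05 (edgeR), with the number of genes on each bar. The share lower exceeds the share higher in every complex, while over all 16520 genes the bars are nearly level at 25.0% and 25.5%.

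Reads can be split between a gene and a near-identical copy, and this family has many such copies. The coding sequences of 106 members were searched against the transcripts of all listed genes, and 28 members, 22 nuclear and 6 on mtDNA, had a listed pseudogene or second member at 95% identity or more over at least 80% of their length. Copies held more counts than the member itself for 11 members. Cox5b is a nuclear subunit of complex IV on chromosome 1. Cox5b-ps, on chromosome 13, is typed as protein-coding in the table but described there as a pseudogene. Cox5b and Cox5b-ps differ at 3 of 387 coding bases. Bases 104 to 253 of their coding sequences, from GENCODE M21 transcripts, are shown because the 3 positions in capitals are the only ones that can tell a coding read of one gene from the other.
Cox5b: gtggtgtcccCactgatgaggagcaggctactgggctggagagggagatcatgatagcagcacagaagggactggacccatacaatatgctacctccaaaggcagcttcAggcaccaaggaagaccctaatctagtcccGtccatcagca
Cox5b-ps: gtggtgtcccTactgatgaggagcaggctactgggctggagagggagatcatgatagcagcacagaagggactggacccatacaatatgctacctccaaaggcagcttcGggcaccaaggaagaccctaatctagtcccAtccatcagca
Cox5b held 776 to 961 counts in Ctrl and 786 to 863 in l-FA, and Cox5b-ps 563 to 742 and 529 to 619. Neither was called, and with the counts of both summed the log2 fold change was -0.19 (adjusted p = 0.060, edgeR). Values of members with copies are uncertain for this reason. An added fit, chosen after the data were seen, gave each member the counts of its copies and called 49 members lower and 2 higher of 103, with 46 calls shared with the original 48.

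Complex II, succinate dehydrogenase, links the citric acid cycle to the chain, and all of its subunits fell. Sdhd, a membrane anchor (ENSMUSG00000000171, chromosome 9, 50507657 to 50515112 in GRCm39), measured 304, 305 and 310 CPM in the Ctrl libraries and 248, 251 and 243 CPM in the l-FA libraries. The groups did not overlap, and the log2 fold change was -0.31 ± 0.02 SE (adjusted p = 0.000113, edgeR). The flavoprotein Sdha (chromosome 13, 74470373 to 74498399), which oxidizes succinate, had 691, 700 and 683 CPM in Ctrl and 609, 619 and 602 CPM in l-FA (log2 fold change -0.18 ± 0.02 SE, adjusted p = 0.000483, edgeR). For the iron-sulfur subunit Sdhb the values were 231, 231 and 243 CPM against 215, 212 and 216 CPM (-0.13 ± 0.03, adjusted p = 0.00858, edgeR), and for the anchor Sdhc 134, 137 and 137 CPM against 124, 123 and 129 CPM (-0.12 ± 0.03, adjusted p = 0.0177, edgeR). Each subunit was thus lower in all l-FA libraries than in any Ctrl library, and their mean levels fell by 7.90% to 19.3%. With scaling by library totals only, Sdhb and Sdhc no longer passed (adjusted p = 0.186 and 0.316, edgeR), and Sdhc also missed without l-FA 1 or l-FA 2 (adjusted p = 0.0705 and 0.0855).

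Complex III carries electrons from ubiquinol to cytochrome c. Its only mtDNA subunit, mt-Cytb (apocytochrome b), had 1453, 1401 and 1444 CPM in Ctrl and 1242, 1256 and 1251 CPM in l-FA, which gave a log2 fold change of -0.20 ± 0.02 SE (adjusted p = 0.000279, edgeR). The nuclear core protein Uqcrc1 stood at 839, 841 and 799 CPM in Ctrl and 686, 626 and 696 CPM in l-FA (-0.30 ± 0.04, adjusted p = 0.00159, edgeR). Uqcrq, a small accessory subunit (chromosome 11, 53318749 to 53321658), showed the largest fall of the complex, from 66.4, 64.7 and 76.8 CPM to 48.8, 47.4 and 47.2 CPM (-0.54 ± 0.07, adjusted p = 0.00100, edgeR). In each of these the groups were apart. The Rieske protein Uqcrfs1 fell by 0.19 and the core protein Uqcrc2 by 0.21 on the log2 scale (adjusted p = 0.000851 and 0.000498, edgeR). Uqcr10 was also lower (adjusted p = 0.0269, edgeR), but missed the threshold under library totals only (0.136) and with any library except Ctrl 2 left out (up to 0.0939). Uqcrb, Uqcr11 and Uqcrh did not pass, with log2 fold changes of -0.20, -0.04 and 0.01.

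In complex I, which oxidizes NADH, falls among nuclear genes were spread over core and accessory subunits. The nuclear core subunits called lower were Ndufs1, Ndufv2 and Ndufs7. Ndufs1, the largest iron-sulfur subunit, measured 208, 189 and 204 CPM in Ctrl and 158, 159 and 165 CPM in l-FA (log2 fold change -0.32 ± 0.04 SE, adjusted p = 0.00100, edgeR), without overlap. Ndufv2 (-0.30, adjusted p = 0.0170) and Ndufs7 (-0.30, adjusted p = 0.0146, edgeR) were called, but both missed the threshold without l-FA 3 (adjusted p = 0.0655 and 0.0565) and each without a further l-FA library (Ndufv2 without l-FA 2, 0.0546, and Ndufs7 without l-FA 1, 0.0543). The core subunits Ndufs3, Ndufs8 and Ndufv1 had log2 fold changes between -0.09 and -0.07 and did not pass. Among 30 accessory subunits 9 were lower and 1 higher. The share lower, 30%, was near the 25.0% of all genes tested, and 33.3% were called in either direction, against 50.5% of all genes. Ndufc1, Ndufb6 and Ndufb5 showed the largest falls by the naming rule.

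Ndufc1 (chromosome 3, 51312098 to 51316409) held 30.9, 32.8 and 32.4 CPM in Ctrl and 22.9, 21.7 and 23.0 CPM in l-FA, and the groups lay far apart relative to their spread (log2 fold change -0.51 ± 0.05 SE, adjusted p = 0.000448, edgeR). Ndufb6 had 55.0, 49.1 and 60.7 CPM against 41.2, 40.2 and 37.3 CPM (-0.47 ± 0.09, adjusted p = 0.00386, edgeR), and Ndufb5 55.8, 53.1 and 56.1 CPM against 39.1, 40.2 and 42.6 CPM (-0.44 ± 0.05, adjusted p = 0.000589, edgeR). Ndufb6, Ndufb5 and the core subunit Ndufs1 (with Eef1b2, among others) each overlap another listed gene, as 52 of the 107 members do. Whether counting used strand is not given in the sources used here. The accessory subunit Ndufa6 (chromosome 15, 82234341 to 82238523) went the other way, at 29.9, 23.7 and 31.8 CPM in Ctrl and 40.4, 34.3 and 37.9 CPM in l-FA. All l-FA libraries were above all Ctrl libraries (log2 fold change 0.40 ± 0.12 SE, adjusted p = 0.0309, edgeR), yet the call was lost without Ctrl 1 (adjusted p = 0.0534), without l-FA 1 (0.0849) or without l-FA 3 (0.0699). Ndufa11 and the assembly factor Ndufaf4 each had a single library that lay 2-fold or more away from the rest of its group, and neither was called by edgeR, though DESeq2 called Ndufaf4 (adjusted p = 0.0294). Ndufaf4 had 73.8, 15.0 and 14.6 CPM in Ctrl and 9.19, 9.92 and 8.61 CPM in l-FA (-1.90 ± 0.67, adjusted p = 0.0526, edgeR), with Ctrl 1 high, and -0.68 without Ctrl 1 (adjusted p = 0.00344, edgeR), where it passed. Ndufa11 was at 47.4 CPM in Ctrl 3 and between 14.6 and 17.4 CPM in the other libraries.

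Of the 7 complex I genes of mtDNA, 4 were lower and 3 were not called. mt-Nd1 (2751 to 3707 on mtDNA in GRCm39) had 674, 669 and 695 CPM in Ctrl and 595, 574 and 569 CPM in l-FA (log2 fold change -0.23 ± 0.03 SE, adjusted p = 0.000528, edgeR). Its neighbour mt-Nd2 (3914 to 4951) had 123, 122 and 126 CPM against 109, 100 and 104 CPM (-0.24 ± 0.04, adjusted p = 0.0026, edgeR), and mt-Nd4 had 340, 343 and 343 CPM against 306, 307 and 309 CPM (-0.16 ± 0.02, adjusted p = 0.000779, edgeR). These 3 genes were lower without overlap. mt-Nd5 was lower by less, at 355 to 370 CPM in Ctrl and 339 to 345 CPM in l-FA (-0.08 ± 0.02, adjusted p = 0.0246, edgeR), and its call was lost under library totals (adjusted p = 0.885), under upper-quartile factors (0.0682) and with any library but Ctrl 3 left out (0.0655 to 0.117). mt-Nd6, the gene on the opposite strand that overlaps the end of mt-Nd5, had 117 to 126 CPM in Ctrl and 131 to 133 CPM in l-FA. The log2 difference of 0.10 missed the threshold (adjusted p = 0.0542, edgeR) and passed in 6 of the alternatives, DESeq2 among them (adjusted p = 0.0390). mt-Nd3 and mt-Nd4l, each at 4.76 to 7.33 CPM, overlapped between the groups.

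The 3 mtDNA genes of complex IV, which form its catalytic core, were not among the genes called lower. mt-Co1 (5328 to 6872) stood at 1999, 1949 and 1981 CPM in Ctrl and 2026, 2042 and 2052 CPM in l-FA, which gave a log2 fold change of 0.05 ± 0.02 SE (adjusted p = 0.0440, edgeR). The l-FA libraries lay above the Ctrl libraries, but the adjusted p rose to as much as 0.135 among the alternatives and exceeded 0.05 in 8 of them. mt-Co3 had 902 to 961 CPM against 944 to 977 CPM (0.05, adjusted p = 0.191, edgeR, and 0.0131 under library totals only) and mt-Co2 236 to 257 CPM against 239 to 251 CPM (-0.02, adjusted p = 0.733). As a share of the counts on mtDNA members other than mt-Atp6, a ratio chosen after the values were seen, the mt-Co genes held 50.1% to 50.3% in Ctrl and 53.7% to 53.9% in l-FA. mt-Nd1, mt-Nd2 and mt-Cytb together held 35.6% of those counts in each Ctrl library and 32.0% to 32.2% in l-FA. Both shares are free of the scaling between libraries, and neither overlapped between the groups. Their genes were picked from these same values, so the lack of overlap is a description only. The shares have the same denominator and make up most of it, so they are not separate results. Levels did not overlap for 60.3% of all genes tested either. Under library totals only, the median log2 fold change of the 13 mtDNA genes was 0.00, while mt-Nd1, mt-Nd2, mt-Nd4 and mt-Cytb still passed as lower (adjusted p at most 0.0169 over the alternatives for mt-Nd2, 0.00582 for mt-Nd1 and 0.00443 for mt-Cytb).

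**Figure D3:**
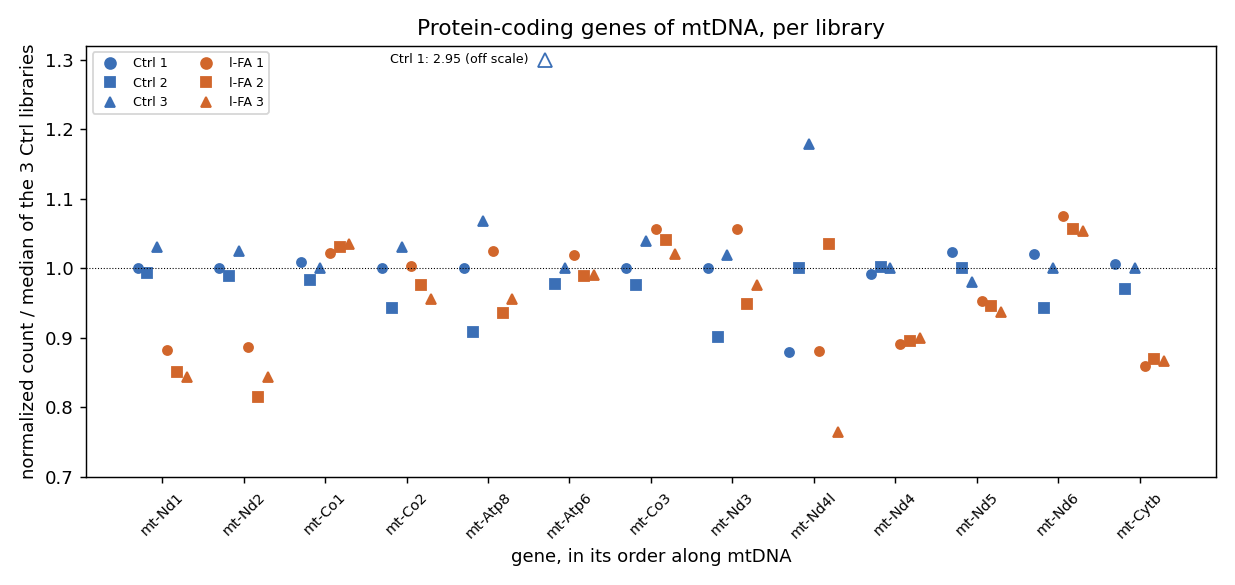
TMM-normalized count of each mtDNA protein-coding gene in each library, divided by the median of the 3 Ctrl libraries, with genes in their order along mtDNA. The l-FA libraries (orange) lie below the Ctrl libraries (blue) for mt-Nd1, mt-Nd2, mt-Nd4, mt-Nd5 and mt-Cytb and above them for mt-Co1 and mt-Nd6, and mt-Atp6 of Ctrl 1 is off the scale.

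The value of mt-Atp6 rested on a single library. mt-Atp6, the proton channel subunit (7927 to 8607), had 17911 counts in Ctrl 1 and 5773 and 6307 in Ctrl 2 and Ctrl 3, and in CPM 933, 309 and 317 in Ctrl and 322, 313 and 313 in l-FA. The fitted change was -0.72 ± 0.43 SE on the log2 scale (adjusted p = 0.212, edgeR) and 0.01 without Ctrl 1. mt-Atp8 (7766 to 7969), whose end overlaps the start of mt-Atp6, had 50.8 to 59.7 CPM in Ctrl and 52.3 to 57.3 CPM in l-FA, and so did not share the excess of Ctrl 1. The nuclear copy Gm10925 on chromosome 1 (24653055 to 24653732) is identical to mt-Atp6 over its whole coding sequence and held 18521, 17468 and 19404 counts in Ctrl and 20340, 18829 and 18798 in l-FA, without a deficit in Ctrl 1. Adjacent copies on chromosome 1, Gm28437 of mt-Co3 and Gm28661 of mt-Co2, are 100% identical to their members and held nearly as many counts as the mtDNA gene. mt-Nd1, mt-Nd2, mt-Nd4, mt-Nd5, mt-Nd6, mt-Cytb and mt-Atp8 had no listed copy of this kind.

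All 13 mtDNA members together held 0.626% to 0.705% of all counts in Ctrl and 0.647% to 0.657% in l-FA. Without mt-Atp6, an alternative added after seeing the data, the shares were 0.596% to 0.622% and 0.614% to 0.624%. With the copies of the 6 members that have them, the shares were 0.832% to 0.919% and 0.870% to 0.892%. The groups overlapped in each of these shares of the library total, while the summed level after TMM scaling was 6473 to 7261 CPM in Ctrl and 6314 to 6375 CPM in l-FA, mt-Atp6 included, without overlap. With these copies counted in, the mt-Co genes held 58.1% to 58.4% of mtDNA counts other than mt-Atp6 in Ctrl and 61.7% to 61.8% in l-FA, so that share did not overlap here either.

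Of the 16 nuclear genes of complex IV tested, Cox5b-ps included, 8 were lower and 1 higher. Cox4i1, the ubiquitous form of the largest nuclear subunit, had 173, 174 and 185 CPM in Ctrl and 154, 138 and 147 CPM in l-FA (log2 fold change -0.28 ± 0.05 SE, adjusted p = 0.00358, edgeR). Cox5a had 164, 156 and 176 CPM against 141, 137 and 129 CPM (-0.29 ± 0.05, adjusted p = 0.00453), and Cox6a1 98.5, 102 and 112 CPM against 86.9, 87.0 and 84.4 CPM (-0.28 ± 0.05, adjusted p = 0.00477, edgeR). These ubiquitous forms were lower in every l-FA library than in any Ctrl library. Cox6b1, Cox7a2, Cox7b and Cox8a were also called lower, by 0.19 to 0.26 on the log2 scale, though Cox7b, Cox7a2 and Cox8a lost the call under library totals only (adjusted p = 0.140, 0.0922 and 0.105, edgeR). With a library left out, the adjusted p exceeded 0.05 for Cox7b in every case but Ctrl 2 (0.0840 to 0.138), for Cox7a2 without Ctrl 1, Ctrl 3, l-FA 2 or l-FA 3 (0.0616 to 0.0833), and for Cox8a without l-FA 2 or l-FA 3 (0.0519 and 0.0558). Cox5b, Cox6c and Ndufa4, named after complex I but now placed in complex IV, did not pass.

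Some subunits of complex IV have a second form made mainly in muscle, testis or lung, and the share of 3 of these forms within the pair did not overlap between the groups, which is also true of the levels of 60.3% of all genes tested. The shares themselves were not tested. Cox6a2, the heart and skeletal muscle form (chromosome 7, 127804607 to 127805559), was low, at 2.03, 2.73 and 2.11 CPM in Ctrl and 4.86, 4.04 and 4.81 CPM in l-FA. Its groups were well apart (log2 fold change 0.995 ± 0.16 SE, adjusted p = 0.00241, edgeR), just inside the 2-fold limit. Cox6a2 overlaps Itgad in the table. As a percent of the summed FPKM (counts per length and depth, as deposited) of Cox6a1 and Cox6a2, it was 3.19% to 4.47% in Ctrl and 7.52% to 9.07% in l-FA. Cox6b2, the testis form, held 2.30% to 3.49% of its pair in Ctrl and 4.19% to 5.44% in l-FA, with a log2 fold change of its own of 0.47 (adjusted p = 0.0516, edgeR, and 0.0207 in DESeq2).

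Cox4i2, the form known from lung and from oxygen-sensing cells (chromosome 2, 152596093 to 152606957), went down and was the only called member past 2-fold (edgeR), at 0.730, 1.13 and 1.25 CPM in Ctrl and 0.286, 0.299 and 0.601 CPM in l-FA (log2 fold change -1.38 ± 0.37 SE, adjusted p = 0.0197, edgeR). With so few counts its call was lost without Ctrl 2 (adjusted p = 0.0571), Ctrl 3 (0.0638), l-FA 1 (0.0669) or l-FA 2 (0.0663). Its share of the Cox4i1 and Cox4i2 pair was 0.954% to 1.53% in Ctrl and 0.423% to 0.924% in l-FA. Cox7a1, Cox8b and Ndufa4l2 were near 0 in all libraries, each at 0 to 0.417 CPM.

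**Figure D4:**
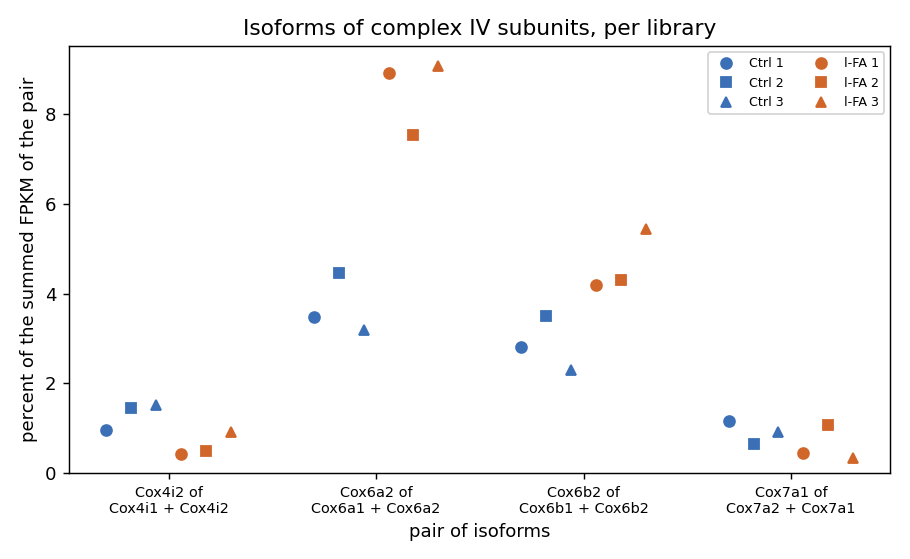
Percent of the restricted form in the summed FPKM of each isoform pair of complex IV, per library (Ctrl blue, l-FA orange). The l-FA libraries lie above the Ctrl libraries for Cox6a2 and Cox6b2 and below them for Cox4i2, while for Cox7a1 the groups overlap.

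In ATP synthase, 7 of 20 genes were lower and 13 were not called. The share called was 35%, all of it lower, where 50.5% of all genes tested were called and 25.0% were lower. The beta, alpha and central stalk subunits were among those lower. Atp5f1b, the catalytic beta subunit (chromosome 10, 127919142 to 127926260), had 1561, 1584 and 1455 CPM in Ctrl and 1216, 1294 and 1309 CPM in l-FA (log2 fold change -0.27 ± 0.04 SE, adjusted p = 0.00197, edgeR). Atp5f1a, the alpha subunit, had 1465, 1479 and 1420 CPM against 1313, 1301 and 1322 CPM (-0.15 ± 0.02, adjusted p = 0.00108), and the central stalk subunit Atp5f1c 290, 336 and 299 CPM against 248, 274 and 242 CPM (-0.28 ± 0.07, adjusted p = 0.0157, edgeR). All 3 were lower without overlap, and the call of Atp5f1c was lost without l-FA 1 (adjusted p = 0.0593) or l-FA 3 (0.0585). Atp5me (-0.41, adjusted p = 0.00778) and Atp5mj (-0.36, adjusted p = 0.0364, edgeR), small membrane subunits, showed the largest called falls of the complex. Atp5mj missed the threshold under library totals only (0.0852) and without Ctrl 2, Ctrl 3, l-FA 2 or l-FA 3 (0.0558 to 0.102). Atp5if1, the inhibitor of the enzyme, had 146 to 166 CPM in Ctrl and 153 to 172 CPM in l-FA and was not called.

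The c-ring, the rotor through which protons pass, is made from 3 genes with the same mature protein. Atp5mc3 was lower, at 161, 151 and 162 CPM in Ctrl and 138, 137 and 132 CPM in l-FA (log2 fold change -0.22 ± 0.04 SE, adjusted p = 0.00296, edgeR). Atp5mc1 had 691, 278 and 328 counts in Ctrl and 429, 514 and 579 in l-FA, which overlapped, and a log2 fold change of 0.16 (adjusted p = 0.739), or 0.67 without Ctrl 1 (adjusted p = 0.0195, edgeR). Its processed pseudogene Gm10039 on chromosome 11, at 99.75% identity, held more counts, namely 2423, 2232 and 2514 in Ctrl and 1889, 1792 and 1684 in l-FA. The sum of gene and copy was 2510 to 3114 counts in Ctrl and 2263 to 2318 in l-FA, without overlap, and in the added fit its log2 fold change was -0.38 (adjusted p = 0.00419, edgeR). The direction of Atp5mc1 thus depended on whether these reads were counted with it. For Atp5mc2 the copies held 96.9% of the summed counts, and the log2 fold change was 0.16 alone and 0.01 with them, with neither called. Atp5mg went from 0.39 to -0.10 with its copies, also uncalled, and Atp5mk from -0.05 (adjusted p = 0.836) to -0.26 (adjusted p = 0.0171, edgeR).

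**Figure D5:**
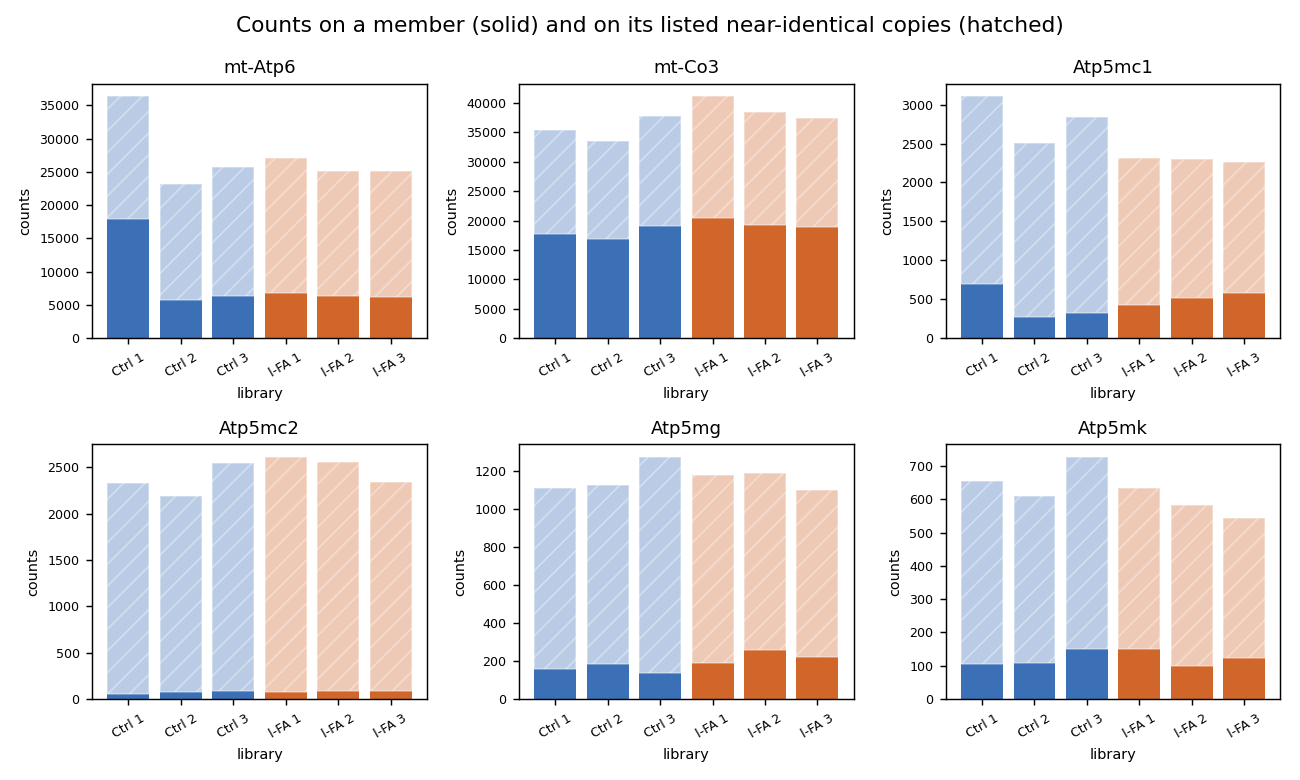
Deposited counts per library on 6 members (solid) and on their listed near-identical copies (hatched), Ctrl in blue and l-FA in orange. In Ctrl 1 the solid parts of mt-Atp6 and Atp5mc1 are above those of Ctrl 2 and Ctrl 3, copies outweigh the member for mt-Atp6, Atp5mc1, Atp5mc2, Atp5mg and Atp5mk, and the full bars of Atp5mc1 are lower in all l-FA libraries.

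Levels between genes were compared in FPKM, per length. In Ctrl, mt-Co1 (1243 FPKM), mt-Cytb (1218) and mt-Co3 (1152) had the highest means, and the nuclear genes with the most were Atp5f1a (268 FPKM), Sdhd (242) and Atp5f1b (215). The median mean level was 264 FPKM for the 13 mtDNA genes and 19.8 FPKM for the 94 nuclear genes in Ctrl, and 274 and 18.9 FPKM in l-FA. Complex II had the highest median of the complexes at 101 FPKM in Ctrl, and the complex I assembly factors the lowest at 7.95 FPKM. For members with copies these levels hold only part of the reads. FPKM also depends on the length assigned to each gene. In Ctrl 1, mt-Nd1 had 674 CPM and 683 FPKM, whereas Ndufb2 had 38.5 CPM and 5.25 FPKM. The gap between mtDNA and nuclear genes, the order of the complexes and the size of the isoform shares therefore depend on these lengths.

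Nuclear respiratory genes are known as targets of the factors NRF1, GABP (an ETS factor) and YY1. RefSeq promoter windows in GRCm38.p6, from 250 bases before to 50 after each start, were matched for 76 of the 94 nuclear members and searched on both strands. The NRF1 core GCATGCG was in 17.1% of them and in 4.01% of 27025 genes with a window, the ETS core CCGGAAG in 23.7% and 9.93%, and the YY1 core AAGATGG in 15.8% and 7.28%. Any of the 3 was present for 16 of the 31 members called lower that had a window (51.6%) and for 18 of the 42 not called (42.9%). A match is a description of the letters only. The 250 bases before the start of Cox6a1 (minus strand, chr5:115348959-115349208, GRCm38.p6) and of Sdhd (minus strand, chr9:50603850-50604099, GRCm38.p6) are shown as members called lower with a motif. In Cox6a1 the capitals mark overlapping matches to the NRF1 core on both strands, the first of which begins 161 bases before the start, and the ETS core on the reverse strand, 16 bases before it. In Sdhd they mark the ETS core on the reverse strand, 46 bases before the start.
Cox6a1: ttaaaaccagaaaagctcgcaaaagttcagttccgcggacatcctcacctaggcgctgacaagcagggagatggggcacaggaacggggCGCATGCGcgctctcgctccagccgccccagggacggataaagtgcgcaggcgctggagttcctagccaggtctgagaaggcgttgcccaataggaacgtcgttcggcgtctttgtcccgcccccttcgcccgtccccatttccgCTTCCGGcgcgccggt
Sdhd: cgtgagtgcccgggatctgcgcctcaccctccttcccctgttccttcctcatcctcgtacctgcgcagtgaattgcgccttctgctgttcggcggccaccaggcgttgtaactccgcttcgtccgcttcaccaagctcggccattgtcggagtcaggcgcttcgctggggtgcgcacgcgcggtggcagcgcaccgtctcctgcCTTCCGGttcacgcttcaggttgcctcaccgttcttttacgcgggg
RNA of the factors themselves moved in different directions. Yy1 was lower, at 56.7 to 58.8 CPM in Ctrl and 43.4 to 48.2 CPM in l-FA (log2 fold change -0.34, adjusted p = 0.00172), Gabpa higher (0.15, adjusted p = 0.0344, edgeR), and Nrf1 had -0.05 (adjusted p = 0.211).

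Other genes of the pathway, which the symbol rule leaves out, were counted in 5 lists with 102 genes in the table, of which 100 were tested, 40 were lower and 12 higher. The share called was thus 52%, near the 50.5% of all genes tested. By direction it was 40% lower and 12% higher, against 25.0% and 25.5% of all genes. The median log2 fold change of these 100 was -0.12, or -0.04 with library totals only, where all genes tested stood at 0.00 and 0.08. Of the 15 genes of mobile electron carriers, which are cytochrome c and the makers of coenzyme Q, 8 were lower and 2 higher (53.3% and 13.3%). Cycs, somatic cytochrome c, had 148, 154 and 152 CPM in Ctrl and 88.8, 85.7 and 89.3 CPM in l-FA, a larger fall than in any called member with a mean count of at least 100 (log2 fold change -0.78 ± 0.03 SE, adjusted p = 1.4e-05, edgeR). Coq2, an early enzyme of coenzyme Q synthesis, fell past 2-fold (-1.19, adjusted p = 6.09e-05), while Coq8a and Coq10a, chosen for mention after their values were seen, rose by 0.74 and 0.93 on the log2 scale (adjusted p = 1.91e-05 and 0.00422, edgeR). Cyc1, the cytochrome c1 of complex III that the rule does not match, was at -0.20 (adjusted p = 0.0754).

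Assembly factors outside the Nduf family split, with 13 lower and 7 higher of 46 and a median log2 fold change of 0.00. Their share called lower, 28.3%, was near the 25.0% of all genes, and 15.2% were higher, against 25.5% of all genes. Among 22 genes of mitochondrial transcription and mtDNA upkeep, 9 were lower and 1 higher (40.9% and 4.55%). Tfam, which packages mtDNA and starts its transcription, had 71.3 to 73.9 CPM in Ctrl and 51.3 to 60.8 CPM in l-FA (log2 fold change -0.35, adjusted p = 0.0049, edgeR), and the mitochondrial RNA polymerase Polrmt had 81.3 to 86.3 CPM and 86.1 to 92.4 CPM (0.10, adjusted p = 0.105). Of 10 regulators of nuclear respiratory genes tested, 5 were lower and 1 higher (50% and 10%). The nuclear receptors Esrra (23.3 to 26.2 CPM in Ctrl, 8.46 to 13.8 CPM in l-FA, log2 fold change -1.13, adjusted p = 0.00202, edgeR), Ppard (-1.57) and Pparg (-1.23) fell past 2-fold. Pparg was scarce, at 0.782 to 1.41 CPM in Ctrl and 0.349 to 0.619 CPM in l-FA. The coactivators Ppargc1a and Ppargc1b were not called (-0.15 and -0.11), and Pprc1 was lower (-0.14, adjusted p = 0.0416, edgeR). Under library totals only, the median log2 fold change of the 10 regulators went from -0.14 to -0.07. For single genes outside the members, calls are given from the edgeR fit with TMM factors alone. Among 7 adenine nucleotide, phosphate and proton carriers and porins tested, 5 were lower and 1 higher (71.4% and 14.3%).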

How the data were processed

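RNA of sorted HSCs was converted to amplified cDNA (SMART-Seq HT), made into libraries with the KAPA Hyper Prep Kit and sequenced. The authors deposited gene positions, unnormalized whole-number counts for each gene and FPKM values made from them. The submitters' processing notes name HISAT2, SAMtools 1.3.1, StringTie, edgeR and GRCm39. The counting tool, its strand setting and the annotation release are not given in the sources used here. FPKM served only for levels between genes and isoform shares.

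The test was the quasi-likelihood F test of edgeR 4.0.16 (R 4.3.3; TMM factors, filterByExpr, glmQLFit and glmQLFTest) on the 3 Ctrl and 3 l-FA libraries, with Benjamini-Hochberg adjustment over the 16520 of 27198 genes kept. The standard error is the log2 fold change divided by the square root of F, given after ± as SE. The study's methods use DESeq2 with limits of 0.05 on the adjusted p and 2 on the fold change, and DESeq2 1.42.0 was an alternative. The code was tested on simulated data. Depth was 19287735 to 20380610 counts per library. Reads carry no molecular identifiers, so counting error covers only part of the error. Other alternatives were RLE and upper-quartile factors, library totals only, TMM without mtDNA genes, no filter, the replicate number as a block, a minimum of 10 counts in all libraries, leave-one-out fits, and, chosen after seeing the data, near-identical copies added to members and mtDNA shares without mt-Atp6.

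Members and lists were chosen with earlier results of these data known. Named genes were the mtDNA genes, core subunits and tissue isoforms, up to 3 largest called falls and rises per complex with a mean count of at least 100 and no overlap between groups, every gene past 2-fold, and fixed regulators. Genes named beyond these were chosen after their values were seen. Among members they were Ndufa11, Ndufaf4, Uqcr10, Uqcrb, Uqcr11, Uqcrh, Cox5b-ps, Atp5mg and Atp5mk. Outside the members they were Coq8a, Coq10a, Ucp2, Slc25a5, Lrpprc, Twnk, mt-Rnr1, mt-Rnr2, the marker genes and the copies. Ndufa4 and Ndufa4l2 were placed in complex IV. The values of 1 member are not reported here.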

Additional observations from a re-analysis of the deposited data

How the results depend on the processing

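Over 15 alternatives, between 34 and 58 members were called and between 33 and 52 were lower. Over all genes tested, the same alternatives called between 33.5% (no filter) and 50.6%, and between 16.8% (no filter) and 25.1% were lower. DESeq2 gave 52 lower and 6 higher, upper-quartile factors and the filter of at least 10 counts each gave 5 higher, and library totals only gave 34 lower and 7 higher. Leaving out each library gave 1 to 4 higher (1 without l-FA 3) and 33 to 49 lower (33 without l-FA 3). Of all genes tested, library totals only called 19.4% lower and 31.2% higher, and the fit without l-FA 3 called 21.3% lower and 22.7% higher. Past 2-fold, DESeq2, upper-quartile factors and library totals gave 2 members, and leaving out a library 0 (without l-FA 1) to 2 (without Ctrl 2). Under library totals, which moved the median of all genes by 0.08, the medians were -0.0752 for complex I, -0.0790 for complex II, -0.12 for complex III, -0.13 for complex IV, -0.0870 for complex V, -0.22 for assembly factors, -0.0045 for mtDNA genes, -0.11 for nuclear genes and -0.11 for all members. Upper-quartile factors gave -0.13, -0.17 and -0.14 for complexes II, III and V, and copies added, chosen after seeing the data, gave -0.22 for complex V. With a library left out the medians ranged from -0.17 to -0.11 (complex I), -0.17 to -0.14 (complex II), -0.22 to -0.18 (complex III), -0.26 to -0.15 (complex IV), -0.19 to -0.14 (complex V) and -0.0903 to -0.0257 (mtDNA genes, the last without Ctrl 1). The difference in the mtDNA share of counts (l-FA minus Ctrl) was -0.0105 percentage points, -0.0462 as a share of effective size, and -0.0281 to 0.0114 with a library left out (0.0114 without Ctrl 1). The sign of uncalled values turned for mt-Co2 (0.0063 under upper-quartile factors, 0.0608 under library totals), Ndufs8 (0.0060), Ndufv1 (0.0072) and mt-Atp8 (0.0490) under library totals, and, over left-out libraries, for mt-Nd3 (-0.0232 to 0.0751), mt-Co2 (-0.0540 to 0.0109), mt-Atp6 (-0.99 to 0.0129), mt-Atp8 (-0.0903 to 0.0211), Atp5if1 (-0.0066 to 0.0850) and Atp5mc1 (-0.0716 to 0.67). With copies added Atp5mc1 was at -0.38 and called. The causes were not tested. The replicate numbers did not pair the libraries (correlations of deviations 0.0187, -0.0132 and -0.05), and a fit with the replicate block called 43 members, 41 lower and 2 higher, all among the original 48. Under the block mt-Co1, Cox7b and Atp5mj missed the threshold (adjusted p = 0.111, 0.0876 and 0.0850, edgeR). Of 55 named members tested, 28 kept sign and side of the threshold in every alternative.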

Other observations

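The mtDNA ribosomal RNA genes lie directly before mt-Nd1 and are not members. mt-Rnr2 had 153, 149 and 146 CPM in Ctrl and 105, 102 and 93.9 CPM in l-FA, without overlap between the groups, and a log2 fold change of -0.57 (adjusted p = 0.000183, edgeR's quasi-likelihood test). mt-Rnr1 had 22.6, 19.1 and 21.6 CPM in Ctrl and 15.7, 17.5 and 17.3 CPM in l-FA, with a log2 fold change of -0.33 (adjusted p = 0.0194, edgeR). Both were chosen after their values were seen.

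Ucp2, a mitochondrial carrier of the inner membrane, was higher in l-FA (174 to 210 CPM in Ctrl, 215 to 220 CPM in l-FA, log2 fold change 0.20, adjusted p = 0.0414, edgeR), whereas the main ADP/ATP carrier Slc25a5 was lower (1160 to 1169 CPM in Ctrl, 913 to 941 CPM in l-FA, log2 fold change -0.33, adjusted p = 3.41e-05, edgeR). Lrpprc, which stabilizes mtDNA-encoded messenger RNA, was lower, at 154 to 163 CPM in Ctrl and 102 to 107 CPM in l-FA (log2 fold change -0.60, adjusted p = 4.76e-05, edgeR). Twnk, the mtDNA helicase, was lower by 0.47 on the log2 scale (adjusted p = 0.000199, edgeR). Ucp2, Slc25a5, Lrpprc and Twnk were likewise chosen after their values were seen.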
